A study of Mus musculus with 2 samples.

Results

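The 8 genes described here encode enzymes of heme synthesis in the mouse: Alas1, Alas2, Alad, Uros, Urod, Cpox, Ppox and Fech. They were chosen by name as members of the pathway. The rule used no measured value, but the choice was made with earlier results of these data known. The annotation holds 21755 protein-coding genes outside the Y chromosome and the mitochondrial genome, of which these are 8. Around them, from 20 kb before to 20 kb after each gene, lay 41 of the 75148 regions of open chromatin in the series. Chromatin was mapped by ATAC-seq, in which the Tn5 transposase inserts sequencing adapters into accessible DNA. The series has 1 group of 2 biological replicates, each made from 50000 primary granulocyte monocyte progenitors (GMP), the bone marrow progenitors of neutrophils and monocytes, taken from C57BL/6J mice (male, adult, 5 to 6 weeks of age), with no treatment or mutation in the labels. Both replicates carry the same donor label under separate biosample labels, and the labels do not say how the cells were sorted. With no other group, all values describe GMP, and no test between conditions exists. Since the cells were measured in bulk, a region open in more of the cells and a region more open in each cell cannot be told apart.

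Heme is built from glycine and succinyl-CoA in a pathway that starts and ends in mitochondria. Alas1 and Alas2 encode 5-aminolevulinate synthases, the first and rate-limiting enzyme: Alas1 serves cells in general and is repressed by heme, while Alas2 serves red cell precursors, where the GATA1 factor activates it. Alad (which joins aminolevulinate into porphobilinogen), Uros (which closes the ring to uroporphyrinogen III) and Urod (which trims its side chains) work in the cytosol. Cpox and Ppox (which oxidise coproporphyrinogen and protoporphyrinogen) and Fech (ferrochelatase, which inserts the iron) work in mitochondria. Cells of the neutrophil lineage need heme for myeloperoxidase and for the cytochrome of the NADPH oxidase. The step between Alad and Uros was not analysed here.

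The following promoter sequences are examples from open and closed start sites, and not all starts are printed. Whether their letters have a part in the difference was not tested. Closed here means that no region of the series-level list had its summit within 1000 bp of the start. The sequences run 5′ to 3′ on the strand of the gene, from the bases before a RefSeq start site (GRCm38.p6, the build of mm10). Capitals mark exact matches to the motifs described further on. Where annotated UTRs reach into a stretch, it was shortened to hold at most 30 UTR bases. The closed start site of Alas2 comes first, at chrX:150547167-150547404 on the plus strand. It has a TATA match (TTTATA) and a GATA match (TTATCT), both on the opposite strand, and a GC-rich run.
Alas2: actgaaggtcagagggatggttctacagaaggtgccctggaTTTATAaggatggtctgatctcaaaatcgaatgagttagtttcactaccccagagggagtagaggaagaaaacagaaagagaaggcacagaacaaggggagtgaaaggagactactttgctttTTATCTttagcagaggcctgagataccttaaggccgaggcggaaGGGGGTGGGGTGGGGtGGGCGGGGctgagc
An internal start site of Uros, a gene with a known internal erythroid promoter in mouse and human, was also closed. The stretch chr7:133702587-133702750 on the minus strand holds 1 of its 2 GATA matches (CTATCT).
Uros, internal start: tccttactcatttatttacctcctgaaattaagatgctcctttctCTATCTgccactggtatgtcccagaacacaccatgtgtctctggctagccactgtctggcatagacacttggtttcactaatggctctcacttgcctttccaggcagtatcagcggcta
The promoter of Cpox was open, at chr16:58669958-58670207 on the plus strand, and holds 2 overlapping GATA matches.
Cpox: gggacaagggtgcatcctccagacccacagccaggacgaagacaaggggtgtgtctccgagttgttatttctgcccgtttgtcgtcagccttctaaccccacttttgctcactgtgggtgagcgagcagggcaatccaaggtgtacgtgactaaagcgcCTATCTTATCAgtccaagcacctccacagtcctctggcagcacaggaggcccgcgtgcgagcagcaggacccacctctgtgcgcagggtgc
The promoter of Alad was open, at chr4:62519910-62520159 on the minus strand, and holds a run of GC boxes and an ETS match.
Alad: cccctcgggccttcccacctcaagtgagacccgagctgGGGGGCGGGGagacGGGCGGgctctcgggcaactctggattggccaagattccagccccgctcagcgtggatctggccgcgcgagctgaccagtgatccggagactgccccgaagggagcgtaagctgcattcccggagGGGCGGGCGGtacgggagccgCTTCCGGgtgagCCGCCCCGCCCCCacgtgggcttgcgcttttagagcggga
The promoter of Alas1 was in the open region with the lowest fold among the main promoters, and 30 bases at chr9:106247906-106247935 on the minus strand hold its NRF1 letters, which match on both strands.
Alas1: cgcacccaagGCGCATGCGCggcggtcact

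Chromatin was open at the promoters of 7 of the 8 enzymes, and Alas2 was the exception. A promoter was called open where the summit of a region lay within 1000 bp of any annotated transcription start site of the gene. Among all protein-coding genes 62.7% had an open promoter in the series-level list, which was called on the reads of both replicates. The same 7 enzymes were open in replicate 1, where 61.4% of all genes were, and in replicate 2, where 58.1% were. In both replicates at once 7 of 8 enzymes were open, against 57.5% of all genes. With 8 genes and a majority of all genes open, these counts describe the enzymes and set nothing apart.

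The strength of each region is given as the authors' fold enrichment, a ratio deposited with each region. Values are compared within a list, except where a region's folds in the 2 replicates are set side by side. The main promoter region, the one nearest to a start site of a protein-coding transcript, had a median fold of 9.59 over the 7 enzymes (range 4.86 to 12.5) in the series-level list, against 8.78 for all promoter regions. In replicate 1 the median was 10.5 over 7 enzymes, against 9.51 for all promoter regions. In replicate 2 it was 8.56 over 6 enzymes, against 8.28 for all promoter regions. Taking instead the highest fold at any promoter of a gene, the median was 9.59 over 7 enzymes and 10.2 over all genes with an open promoter. The enzymes thus lay near the middle of all open promoters, with Cpox, Uros and Fech on the high side and Alas1 on the low side.

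**Figure D1:**
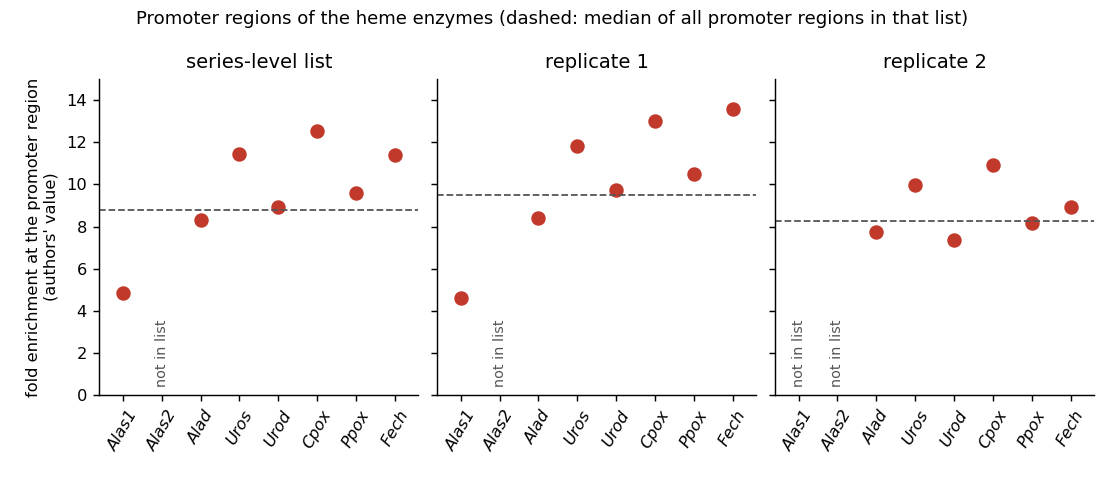
Fold enrichment (authors' value, linear axis) of the main promoter region of each enzyme in the series-level list, replicate 1 and replicate 2; dashed lines are the medians of all promoter regions, 8.78, 9.51 and 8.28. Alas2 is in none of these lists, Alas1 is low at 4.86 and absent from the list of replicate 2, and Cpox, Uros and Fech lie above the dashed line in all 3 panels.

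Alas1, the synthase of cells in general, had an open but weak main promoter. Its region at chr9:106247414-106248138 had its summit 14 bp inside a start site, in the UTR, and a fold of 4.86 in the series-level list, at percentile 10.99 of all regions. Its fold was 4.61 in replicate 1, and the region was not in the thresholded list of replicate 2, whose looser list held it at 4.50. Alas1 still counted as open in both replicates through an intronic region 5.6 kb into the gene, at 603 bp from the start site of an internal transcript. That intronic region had a fold of 6.39 in the series-level list, 5.99 in replicate 1 and 6.21 in replicate 2. With a promoter window of 500 bp, which drops the intronic region, 6 of 8 enzymes were open in both replicates.

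Alas1 had 8 regions within its window, of which 4 lay away from any promoter. Upstream regions at -12.6 kb (fold 9.37) and -10.5 kb (fold 6.73) were found in both replicates. The -12.6 kb region had a fold of 9.43 in replicate 1 and 8.82 in replicate 2, and the -10.5 kb region 6.87 and 6.14. At Alas1 the strongest region was therefore the far upstream one and not the promoter. Downstream, a region 18.5 kb from the 5′ end (fold 6.31) lay between Alas1 and Tlr9, a receptor for bacterial DNA, and was found in both replicates. A region in a coding exon of Tlr9 (fold 4.07) was in neither replicate's list, and 2 more regions were promoter regions of Tlr9 (fold 5.95 and 7.99).

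Alas2, the synthase of red cell precursors, had no region in its body or within 1000 bp of its start sites in any of the 7 lists. The single region within its window, at chrX:150587865-150588856, lay 40.8 kb from its 5′ end at the shared promoter of Apex2, a DNA repair nuclease, and Pfkfb1, an enzyme of glycolytic control. That region had a fold of 14.5 in the series-level list, 15.5 in replicate 1 and 12.4 in replicate 2. On the other side the next region lay 69.1 kb upstream (fold 15.9). The distance between these summits was 109.91 kb, against a median between neighbouring regions of 9.21 kb over the genome and 15.6 kb on the X chromosome. This gap was taken because it spans Alas2, a 23.3 kb gene without a region, so it had to exceed both medians. The looser list of replicate 1 held a weak region at -7.1 kb (fold 4.54), which the looser list of replicate 2 did not hold. The looser series-level list had its next upstream region at -36.5 kb (fold 6.07). Thus Alas1 was open at its promoter, and Alas2 stood in a stretch with no region from either replicate's thresholded list. Of the enzyme genes only Alas2 lies on the X chromosome, and the mice were male. Whether that affected which regions were detected was not tested.

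**Figure D2:**
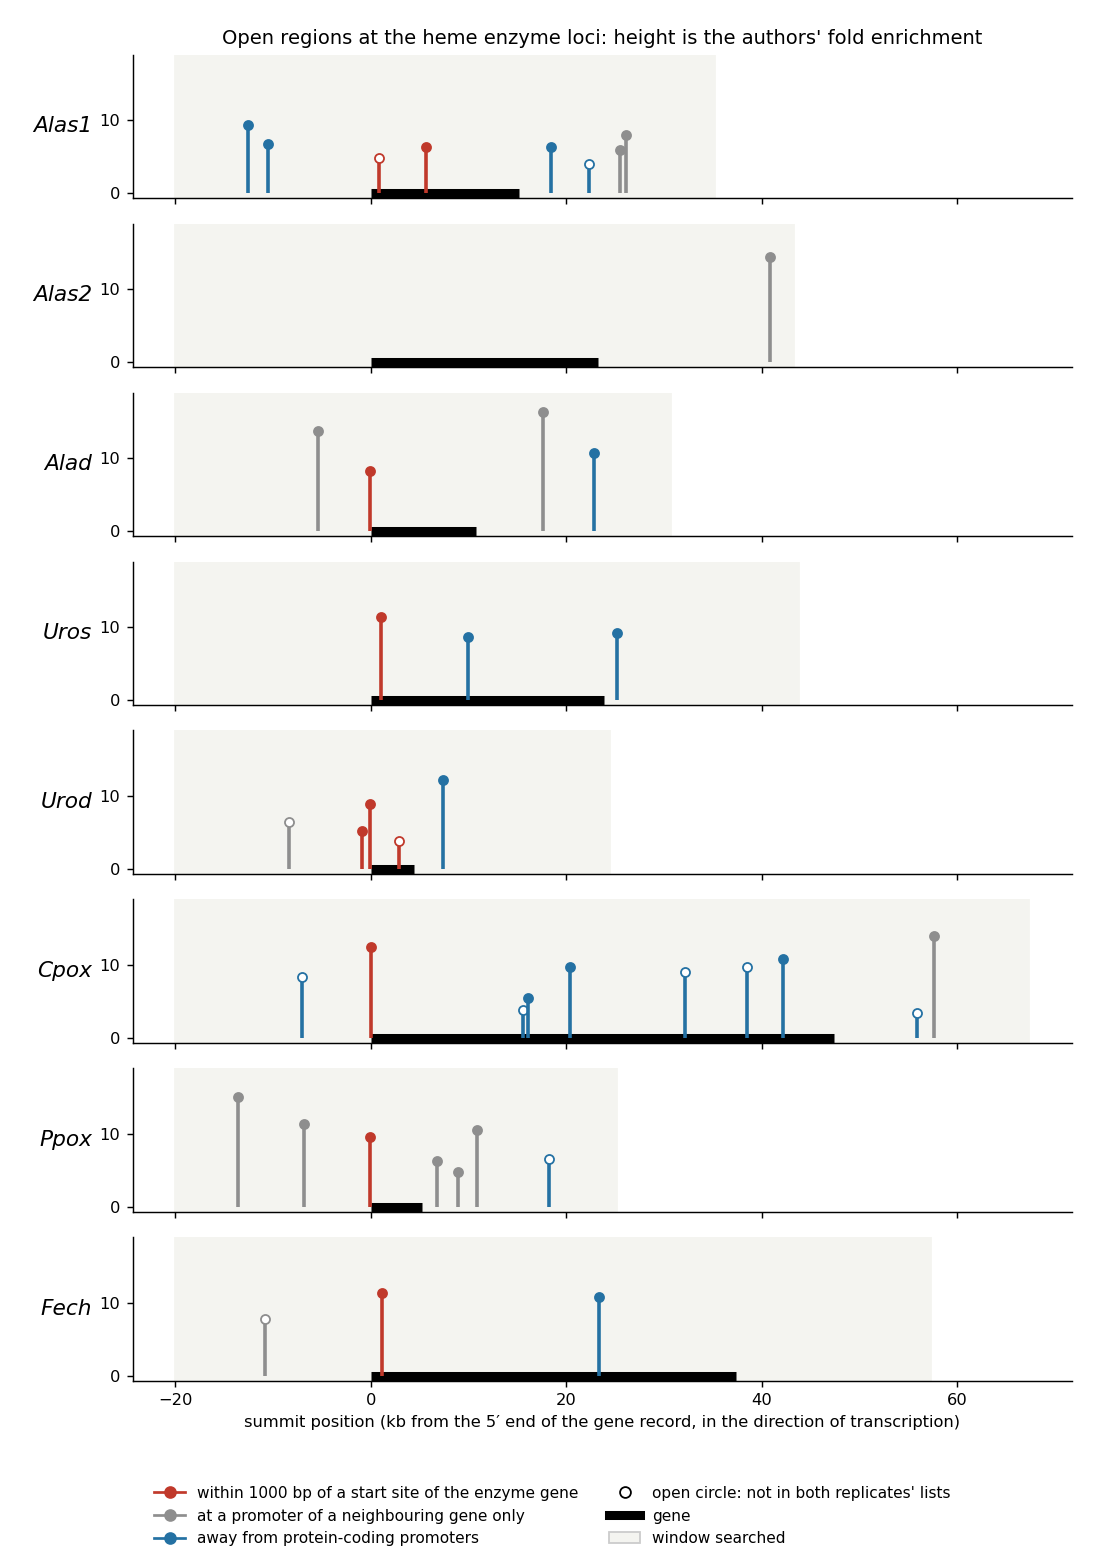
Regions of the series-level list in the window of each enzyme gene, by distance of the summit from the 5′ end of the gene record (kb, in the direction of transcription) and by the authors' fold enrichment; filled circles were found in both replicates, open circles were not, and the black bar is the gene. Alas2 shows no region over its body, while Cpox carries 6 intronic regions besides its promoter region.

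The cytosolic enzymes Alad, Uros and Urod each had an open promoter in both replicates. The promoter of Alad, at chr4:62519542-62520263, had a fold of 8.31 in the series-level list, 8.42 in replicate 1 and 7.75 in replicate 2. The promoter of Uros, at chr7:133708684-133709804, had a fold of 11.4 in the series-level list, 11.8 in replicate 1 and 9.96 in replicate 2, and is shared with Bccip, a cell cycle gene on the other strand. For Urod the main region at chr4:116994278-116994628 had a fold of 8.94 in the series-level list, 9.74 in replicate 1 and 7.38 in replicate 2. Uros was the strongest of these 3 in every list.

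Urod shares its upstream promoter with Hectd3, a ubiquitin ligase, and had 3 regions at its own start sites. Its main region was 351 bp wide, the narrowest main promoter of the 7 enzymes, whose others were 722 to 1239 bp wide. A weaker region at -918 bp (fold 5.30), at the Hectd3 start site, was in both replicates, and a region at an internal Urod start site (fold 3.90) was in neither. The strongest region at Urod lay in a coding exon of the next gene, Zswim5, 7.4 kb from the 5′ end of Urod. Its fold was 12.3 in the series-level list, 14.6 in replicate 1 and 9.59 in replicate 2.

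Alad and Uros each had regions away from promoters that were found in both replicates. At Alad, a region in an annotated UTR of Bspry had a fold of 10.7, and the promoters of the neighbours Hdhd3 (fold 16.3) and Pole3 (fold 13.7, shared with 4933430I17Rik) were stronger than that of Alad. At Uros, an intronic region 9.97 kb into the gene had a fold of 8.66 in the series-level list, 10.3 in replicate 1 and 6.48 in replicate 2. A Uros region 25.2 kb from the 5′ end, just past the end of the gene, had a fold of 9.24 in the series-level list, 9.74 in replicate 1 and 7.33 in replicate 2.

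The enzymes of the last steps, Cpox, Ppox and Fech, had open promoters of 1092, 1239 and 1238 bp, against a median of 745 bp for all promoter regions. The promoter region of Uros was as broad, at 1121 bp, and that of Alas1, whose enzyme is also mitochondrial, had 725 bp. Cpox had the highest promoter fold of the 8 genes in the series-level list, 12.5 at chr16:58669802-58670893, with 13.0 in replicate 1 and 10.9 in replicate 2. Fech had a promoter fold of 11.4 at chr18:64488331-64489568, with 13.6 in replicate 1 and 8.95 in replicate 2. Ppox had a promoter fold of 9.59 at chr1:171280690-171281928, with 10.5 in replicate 1 and 8.17 in replicate 2. Fech was thus highest among the enzymes in replicate 1, and in replicate 2 it came after Cpox and Uros. The summit at Fech lay 1.1 kb inside the gene record and 12 bp before a start site, so that Fech dropped out when only the 5′ end of the record was used.

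Cpox had the most regions of any of the enzymes, 10 within the longest of the windows, of which 8 lay away from promoters and 6 of those in its introns. Of the 6 intronic regions 3 were found in both replicates: those at 16.1 kb (fold 5.44), 20.4 kb (fold 9.74) and 42.1 kb (fold 10.8) from the 5′ end. The Cpox region at 32.2 kb (fold 9.10) was in the list of replicate 2 only, with a fold of 8.19 there, and was the single region of the 41 with that pattern. The Cpox region at 38.5 kb (fold 9.72) was in the list of replicate 1 only, with a fold of 9.92 there. Per 10 kb of its 87.3 kb window Cpox had 1.14 regions, fewer than Ppox (1.55) and Alas1 (1.45). The 8 enzymes had a median of 0.957, against a median of 0.538 over all genes. Alas2 (0.158), Fech (0.388) and Uros (0.470) lay below the median of all genes. These densities include promoters of neighbouring genes. Away from promoters the median was 1 region per enzyme, against 2 over all genes.

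Ppox sits in a dense stretch of genes, and 5 of its 7 regions were promoters of neighbours. These belonged to Ufc1 (fold 15.1), a conjugating enzyme of the ufmylation pathway, Usp21 (fold 11.3), a deubiquitinase, and B4galt3 (fold 10.5, 6.36 and 4.85), a galactosyltransferase. The region of Ppox away from promoters (fold 6.66) was in the list of replicate 1 only. Fech had 3 regions, among them an intronic region 23.4 kb into the gene. That Fech region had a fold of 10.8 in the series-level list, 11.9 in replicate 1 and 7.34 in replicate 2. A region near a Nars start site (fold 7.90) was in the list of replicate 1 only.

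Over the 41 regions, 10 lay at promoters of the enzymes themselves, 13 at promoters of neighbouring genes alone, and 18 away from protein-coding promoters. Their median fold was 8.94, against 8.09 for all 75148 regions. The regions at the enzymes' own promoters had a median fold of 8.63, those at neighbouring promoters 10.5, and those away from promoters 8.88, against 8.78 for all promoter regions and 7.93 for all others. Of the 18 regions away from promoters 8 were intronic and 10 outside the gene. At least 1 such region was present at 7 of the 8 enzymes, all but Alas2, against 72.7% of all genes. The median enzyme had 4.5 regions of any kind and 1 away from promoters, against 4 and 2 over all genes.

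Most of these regions were found in both replicates. Of the 41 regions 30 overlapped a region of each replicate by at least 1 bp, against 66.1% of all regions of the series. Another 6 were in the list of replicate 1 only, 1 in that of replicate 2 only and 4 in neither. The 4 in neither list were weak, with folds of 3.50 to 4.07 in the series-level list. All 14 member regions with a fold of at least 10 were in both replicates, against 97.1% of all such regions, while 1 of 6 with a fold under 5 was, against 23.1%. Between these, 7 of 9 with a fold of 5 to 7 were in both replicates, against 41.6%, and 8 of 12 with a fold of 7 to 10, against 71.3%. At promoters 19 of 23 member regions were in both replicates, against 81.0% of all promoter regions. Away from promoters 11 of 18 were, against 61.6% of all others.

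Where both replicates had the region, fold was higher in replicate 1 for 26 of 30, as it was for 92.1% of all regions of the series in both lists. The median fold of these 30 regions was 10.4 in replicate 1 and 8.32 in replicate 2. Depth is unknown and the denominator of the fold is not stated, so the 2 lists have no known common scale. As percentiles within each replicate's list replicate 1 was higher for 17 of 30, and for 58.2% of all regions in both lists. The lists differ in length (65423 regions in replicate 1 and 53686 in replicate 2), which moves these percentiles, so they describe a region's place in its own list and show no change. The 4 regions with the higher fold in replicate 2 were the Alas1 intronic region, the weaker upstream Urod region, a Cpox intronic region at 16.1 kb and the promoter region of Cldnd1 beside Cpox. In the looser lists all 41 regions were present in at least 1 replicate, against 99.7% of all regions, and 38 of 41 in both, against 97.1%.

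**Figure D3:**
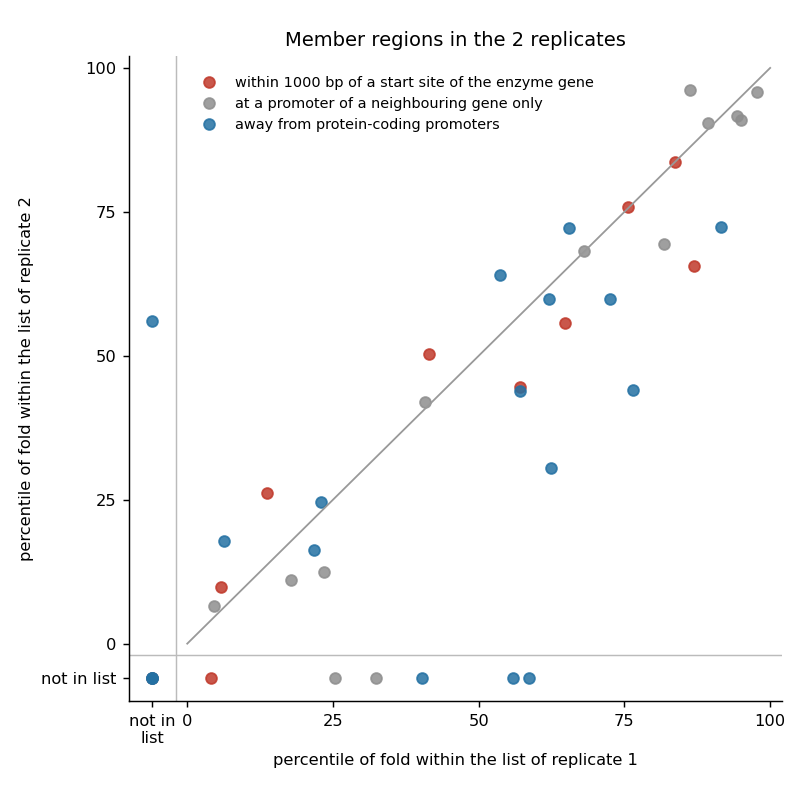
Percentile of fold of each of the 41 regions within the list of replicate 1 (horizontal) and of replicate 2 (vertical), with regions missing from a list at its margin and equal percentiles on the grey line. Of the 30 regions in both lists 17 are higher in replicate 1; 6 regions lie along the lower margin, 1 on the left margin, and 4 overlap in the corner.

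The closed start sites were those with few CpG dinucleotides. RefSeq's promoter table holds 10 start sites of 7 of the enzymes, without Fech, as 250 bases before to 50 after the start. The observed to expected ratio of CpG in these stretches was 0.318 at Alas2 and 0.298 at the internal start of Uros, and neither start had a region within 1000 bp. Among all start sites in the decile of the ratio that holds these values, 40.3% were open. The other 8 start sites had ratios of 0.581 (Cpox) to 1.16 (Uros), and all were open. In the deciles above 0.59 the share of open start sites was between 82.1% and 92.5%, and in the lowest decile it was 10.9%. Of these 8 Cpox had the lowest ratio, in a decile where 64.1% of start sites were open, and the highest fold. Whether CpG content has a part in these differences was not tested.

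**Figure D4:**
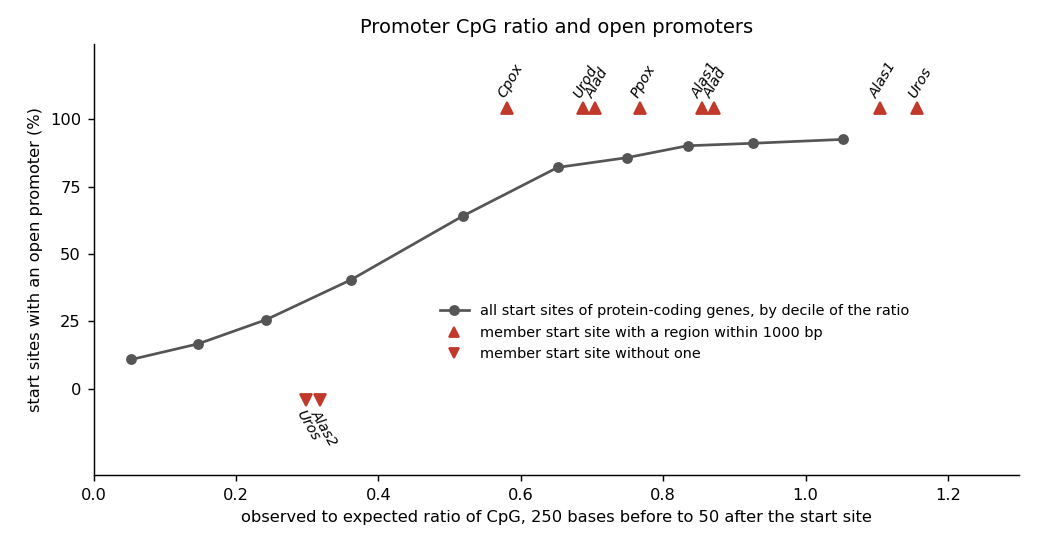
Share of start sites with an open promoter (vertical, %) by the median CpG ratio of each decile of all 20061 start sites (horizontal, grey line), with the 10 start sites of the enzymes as triangles above (open) or below (not open). The start of Alas2 (0.318) and the internal start of Uros (0.298) lie below, in a range where 40.3% of start sites were open, and the other 8 lie above.

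The motif searches took exact letters on both strands. The GATA search took AGATAA, with T allowed as its first letter and G as its last. For general promoter factors the letters were GGGCGG for the GC box, CCNCNCCC for the CACCC type, which can overlap a GC box, CCGGAAG for ETS, TGACGTCA for CRE, GCATGCGC for NRF1 and TATAAA for TATA. For blood cell factors they were GAGGAAGT for PU.1, TTGCNNAA for CEBP, TGTGGT for RUNX and TGANTCA for the AP-1 and NFE2 factors. The CTCF core was AGGGGGC, with A allowed as the third letter and T as the fourth. A match describes the letters and is not a site. In the 250 bases before a start, GATA letters occurred at 3 of the 10 enzyme starts (Alas2, the internal start of Uros, and Cpox), against 23.0% of all 20061 starts. By state, 15.8% of open starts and 33.7% of those not open held GATA letters. Among the open enzyme starts searched, which left out Fech, Cpox alone thus had GATA letters in this window, in the sequence printed above. TATA letters occurred at Alas2 alone, against 11.2% of all starts. They lay on the opposite strand, toward the end of the stretch farthest from the start. NRF1 letters occurred at Alas1 alone, against 3.05% of all starts, and the GC box at 6 of 10, against 44.3%. Alad had 6 GC box matches at 1 of its starts.

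Around the summits the 41 regions mostly held motifs in shares near those of their class. Within 150 bp of the summit GATA letters were in 5 of 18 regions away from promoters, against 36.5% of all such regions, and in 6 of 23 promoter regions, against 18.3%. RUNX letters, for a factor family of blood cells, were in 8 of 18 regions away from promoters, against 33.3%. CEBP letters, for the family that drives granulocyte fate, were in 4 of 18, against 21.1%, at Alas1 (-12.6 and -10.5 kb), Ppox and Fech. PU.1 letters were in none of the 18, against 12.5%. The promoter summits of Uros, Cpox and Fech each had 1 GATA match. The one at the Cpox summit is not among the matches in the printed Cpox promoter sequence. At Fech the promoter summit also had 3 GC box and 4 CACCC type matches.

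The following regions held the most RUNX letters among those away from promoters and are given as 201 bases centred on the summit, with capitals for GATA, RUNX and CTCF core matches. The Cpox intronic region at chr16:58708694-58708894 on the plus strand, in the list of replicate 1 only, has 3 RUNX matches, 1 GATA match and 1 CTCF core match.
Cpox, intron: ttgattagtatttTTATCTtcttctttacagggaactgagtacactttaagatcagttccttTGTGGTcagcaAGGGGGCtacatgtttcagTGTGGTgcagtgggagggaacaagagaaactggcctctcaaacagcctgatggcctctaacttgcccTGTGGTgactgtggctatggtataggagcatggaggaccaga
The region past the end of Uros at chr7:133684817-133685017, on the minus strand and in both replicates, has 2 RUNX matches here.
Uros, past the end: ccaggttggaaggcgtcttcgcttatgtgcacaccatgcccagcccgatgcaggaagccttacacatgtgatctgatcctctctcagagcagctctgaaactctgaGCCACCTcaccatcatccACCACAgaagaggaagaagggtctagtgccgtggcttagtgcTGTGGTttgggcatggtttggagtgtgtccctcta

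The other listed genes of heme and iron handling were all open. All 43 genes of a list outside the 8 enzymes had an open promoter in the series-level list, against 62.7% of all genes. The same 43 were open in both replicates, against 57.5%. The list was chosen with earlier results of these data known, so the count describes the listed genes only. Of the 7 mitochondrial carriers and transporters the median fold was 11.0, of the 5 partners of aminolevulinate synthase and ferrochelatase 11.8, and of the 8 genes of iron-sulfur assembly 8.47. The 10 genes of iron uptake and sensing had a median of 10.7, and the 13 genes of heme sensing, export, breakdown and use a median of 10.4. Over the 43 genes it was 10.9, against 10.2 for all genes with an open promoter. Whether this count is particular to GMP was not tested, since 1 cell type was measured.

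The highest of these promoters were those of Blvra, Sucla2 and Cox10. Blvra (biliverdin reductase, after heme breakdown) had a fold of 19.4 in the series-level list, 20.2 in replicate 1 and 16.8 in replicate 2. Sucla2 (a subunit of succinyl-CoA synthetase) had 16.4 in the series-level list, and Cox10 (which acts in making heme A for cytochrome oxidase) 15.7. The lowest were Slc48a1 (a heme transporter, 5.27), Iscu (the scaffold of iron-sulfur assembly, 5.88) and Slc25a37 (mitoferrin 1, which carries iron into mitochondria, 6.23). Alas2 had 1 region in its window and 0 away from promoters. Slc25a37, which like Alas2 is needed most in red cell precursors, had 12 and 10, while other genes of this list had as few as 1 and 0. The windows differ in length with the genes, so these counts set nothing apart.

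**Figure D5:**
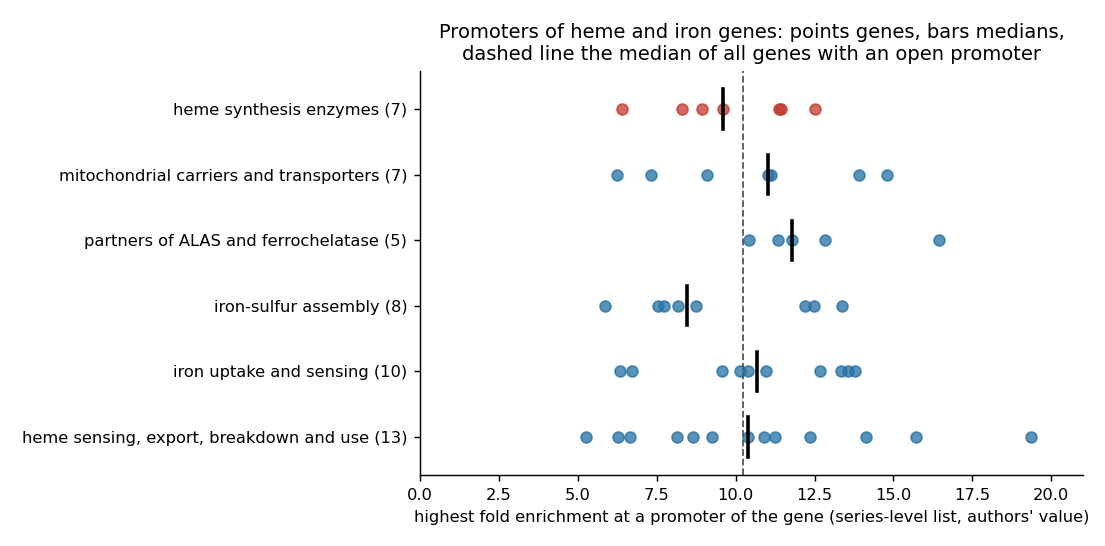
Highest fold at a promoter (series-level list, authors' value) of each gene with an open promoter, for the heme synthesis enzymes and 5 groups of other heme and iron genes, with black bars for medians and a dashed line at 10.2, the median of all genes with an open promoter. The 7 open enzymes lie between 6.39 and 12.5; Alas1, Alad, Urod and Ppox lie below the lowest of the partners of aminolevulinate synthase and ferrochelatase (10.4).

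Marker genes, also listed with earlier results of these data known, were read by the same promoter rule. All 12 markers of GMP and neutrophil precursors were open in both replicates, against 57.5% of all genes. Their promoter folds in the series-level list were low, with a median of 7.16 and a range of 4.33 (Csf1r, a macrophage growth factor receptor) to 13.9 (Ms4a3, a gene of this stage), against a median of 10.2 for all genes with an open promoter. Mpo (myeloperoxidase) had a fold of 5.50. Of 11 erythroid markers 6 were open in the series-level list, against 62.7% of all genes, and the same 6 in both replicates, with a median fold of 11.5: Gata1 (fold 9.99), Epor (11.9), Hbb-bs (16.9), Hbb-bt (11.1), Ermap (9.79) and Tfrc (13.8, also in the iron list). Klf1, Hba-a1, Hba-a2, Slc4a1 and Rhag were not open there, but the looser series-level list held Hba-a1 (fold 3.07) and Hba-a2 (fold 3.86), whereas it did not hold Alas2. The alpha globin copies are near-identical, and whether reads were lost there was not tested. Whether cells of other lineages were among the sorted cells was not tested either. Of the other lists 3 of 6 megakaryocyte, 2 of 4 mast and basophil, 2 of 4 B cell (Pax5 and Ebf1), 0 of 4 T cell and 0 of 4 hepatocyte markers were open.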

How the data were processed

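ATAC-seq regions of 2 GMP samples were analysed, from 7 lists deposited in mm10, per the submitters' file list. The labels and headers do not name the aligner, the caller or a Tn5 shift. Each row carries a fold (a ratio by the authors, whose denominator is not stated), a q-value as −log10, deposited by the authors, and a summit. The files give no counts, so the depth is unknown, and a region missing from a list only did not pass its threshold. The series-level list used throughout is the conservative one, called on all reads and thresholded by the irreproducible discovery rate between the replicates. Each replicate's own thresholded list gave the values per replicate, and looser lists were alternatives. Instruments are named in the labels of replicate 1 alone.

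Rows sharing at least 1 bp became 1 region, with the summit and fold of the row with the highest fold. Genes and start sites came from GENCODE vM21 (GRCm38.p6), and sequences from RefSeq and its genome of that build. Of the promoter sequences 502 were compared with the genome, and 502 were equal. Python 3.11.15, pandas 2.3.3 and pysam 0.24.0 were used, and the rules were tested on simulated data. No p-value was computed. A marker listed at the outset is not reported here. The members and lists were chosen with earlier results of these data known. All 8 enzymes are named, and of the heme and iron list those not open and the 3 highest and 3 lowest by promoter fold. Neighbouring genes are named only where a member region lies at their start site or inside their annotation.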

Additional observations from a re-analysis of the deposited data

How the results depend on the processing

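Of 44 alternatives, 38 left the value within 1.5 times of the count given, or within the spread between replicates for the median fold. That spread comes from the medians of the same 2 replicates, so the medians without a replicate are no check of it. The counts of open enzymes and of open heme and iron genes were at or near their highest possible value. A fall from 43 to 33 genes still lay within 1.5 times. Regions found could only rise when 1 replicate was left out. The tally of 38 therefore says little about these counts. The looser series-level list gave 63 regions at the enzymes with a median fold of 6.31. Only regions with a fold at or above the list median gave 24 regions and a median fold of 10.8. There 6 enzymes and 33 of the 43 heme and iron genes were open, and Alas1 was not. A window of 50 kb gave 73 regions. Leaving out 1 replicate, by using the list of the other, gave 32 to 37 regions, a median fold of 8.18 to 9.74, 7 open enzymes, 43 heme and iron genes, and 31 to 36 regions found. Within 50 bp of the summits 45 pairs of region and motif matched, against 90 within 150 bp, of 492 pairs. Leaving out the promoters of neighbouring genes, an alternative chosen after seeing the data, gave 28 regions with a median fold of 8.80. No paired analysis was possible because the series has 1 group. The unknown depth limits every statement on a missing region.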

Other observations

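Weaker regions at the enzyme loci that the main list did not hold were present in the other lists. The looser series-level list had 22 of them, with a median fold of 3.18 and a highest of 5.34, and the looser lists had 14 in replicate 1 and 9 in replicate 2. Among them Alas1 had a region 16.8 kb from its 5′ end, past the end of the gene, with a fold of 2.95 in the looser series-level list, 3.75 in replicate 1 and 2.34 in replicate 2. Uros had a region at 23.3 kb, near its 3′ end, with a fold of 4.38 in the looser series-level list, 4.90 in replicate 1 and 3.43 in replicate 2. Ppox had a region at 20.6 kb with a fold of 5.10 in the looser series-level list, 4.55 in replicate 1 and 4.86 in replicate 2. Alad had a region at 4.3 kb, inside the gene, with a fold of 3.31 in the looser series-level list and 3.08 in replicate 1. A region at an internal start site of Cpox, 8.5 kb into the gene, was in the looser list of replicate 2 only (fold 3.64).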
